A study of Mus musculus with 15 samples.

Results

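Complement is a set of plasma and membrane proteins that tags microbes and damaged cells and calls in leukocytes. The classical and lectin routes cut C4 and C2, the alternative route uses factor B and factor D, and all of them converge on the cleavage of C3. Fluid-phase and membrane regulators stop the cascade on host cells. The liver makes most circulating complement, and intestinal epithelium and tissue macrophages also make some components locally.

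The genes described here are 8 complement components and regulators, chosen by name from the 21300 genes tested. They are the components C2, C4b, C3, Cfb (factor B) and Cfd (factor D, also called adipsin), and the regulators Cfi (factor I), Cd55 and Serping1 (C1 inhibitor). Cfi was chosen because it was known to be high in polyps in these data, so its difference between the tissues is given below as a description. Where it stands among the genes called, that call supports nothing. The 8 genes had 12 probes on the array, of which 11 were kept. A probe was kept when the scanner software called its sample signal well above background in all arrays of 1 or more groups. For 7 of the 8 genes the probe used met this in all 4 groups, and Cfd met it only in untreated inflamed tissue.

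The samples came from female Swiss Webster mice, all given the carcinogen azoxymethane (7.4 mg/kg) and 3 cycles of 4% dextran sulfate sodium, which injures the colon lining. Each cycle gave dextran sulfate sodium for 7 days and plain water for 21 days. Mouse age was 7 weeks at the start, 9 weeks at the first cycle and 18 weeks at the end. The 4 groups, with 2 mice each, were polypoid tissue of mice given 5-ASA, polypoid tissue of untreated mice, inflamed tissue of mice given 5-ASA and inflamed tissue of untreated mice. 5-ASA (5-aminosalicylic acid, mesalamine) is an anti-inflammatory drug, given here at 75 mg/kg from the carcinogen injection to the end, and the mice called untreated had vehicle alone. Colon areas were cut from frozen sections by laser capture and their RNA was amplified in 2 rounds. Each sample shared its array with universal reference RNA of the mouse, labelled with the second dye, and 7 of the 8 mice had a second array with the dyes swapped. A captured area can hold several cell types, so fewer cells of a type and less RNA per cell cannot be told apart. Tissue without azoxymethane and dextran sulfate sodium was not analysed here, so no value below is relative to healthy colon.

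All 8 markers of colon epithelium, Epcam and Krt8 among them, were well above background in every mouse. The share of spots well above background was 57.4% to 90.9% over the 15 arrays, and the lowest share belonged to 5-ASA inflamed mouse 2, the mouse with 1 array. The arrays were scanned in 4 sessions, and the 2 mice of each group were always in different sessions. Session 1 held both inflamed mice numbered 1, session 2 both polypoid mice numbered 1, session 3 both polypoid mice numbered 2 with untreated inflamed mouse 2, and session 4 held 5-ASA inflamed mouse 2. Every level below is log2 of sample over reference RNA, so 1 unit is a 2-fold step, and levels of different genes are not compared because their probes differ.

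**Figure D1:**
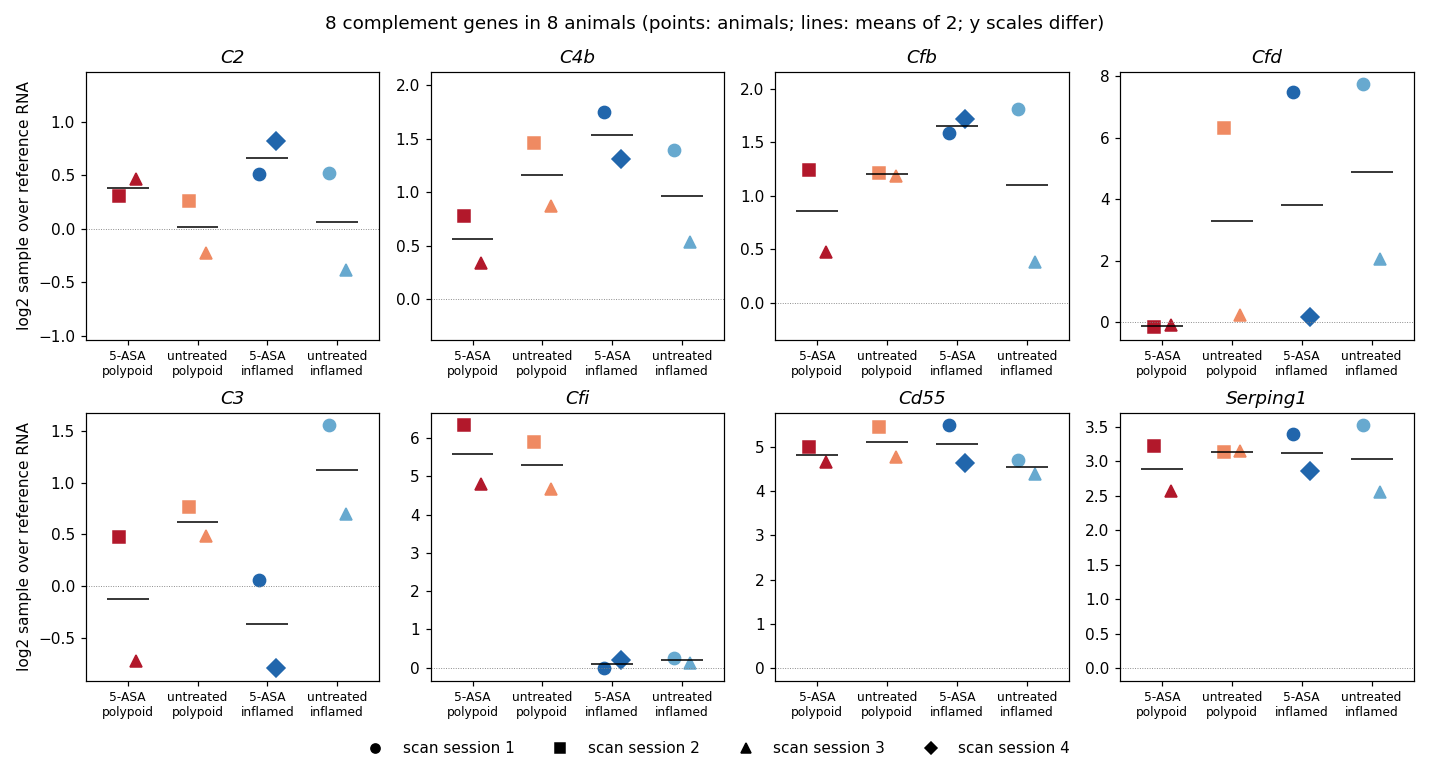
Levels of the 8 genes in each mouse, as log2 of sample over reference RNA, with a point per mouse, its shape showing the scan session, and a line at the mean of the 2 mice of a group (scales differ between panels). Cfi separates the 4 polypoid from the 4 inflamed mice, Cfd is high in 3 mice of 3 different groups, and C3 is lower in the 4 mice given 5-ASA than in the 4 untreated mice.

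The following was asked of each gene: how its level in polypoid tissue differed from that in inflamed tissue, and how it differed between mice given 5-ASA and untreated mice. In polypoid against inflamed tissue over both treatment arms, limma called 1 of the 8 genes (Cfi, higher), where it called 5.93% of all genes and 3.97% as higher. At an unadjusted p under 0.05, 0 of the other 7 and 23.2% of all genes passed. The 8 genes had a median log2 difference of -0.15, and the median over all genes was -0.02. In the 5-ASA arm alone 1 of the 8 was called (Cfi), beside 3.06% of all genes, and 1 of the other 7 passed at an unadjusted p under 0.05 (C4b), beside 19.1% of all genes. In the untreated arm limma called 0 of the 8, beside 0.164% of all genes, and 0 of the other 7 passed unadjusted, beside 12.6%. Because Cfi was chosen for this difference, nothing is read from these counts. The remaining 7 genes had adjusted p of 0.43 to 0.91 over both arms. Scan session 3, the only one with both tissues, held 2 polypoid mice, 1 of them given 5-ASA, and 1 untreated inflamed mouse. Its tissue difference is thus mixed with the drug. Within it the differences of Cfb (0.45), C2 (0.50), C4b (0.07) and Serping1 (0.30) were positive, against negative values over all mice. Cd55 (0.32), C3 (-0.81) and Cfd (-1.98) kept their sign. Between its untreated polypoid and untreated inflamed mouse the differences were 0.80 for Cfb, 0.15 for C2, 0.34 for C4b and 0.59 for Serping1. They were 0.38 for Cd55, -0.21 for C3 and -1.82 for Cfd.

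For 5-ASA against untreated mice, limma called 0 of the 8 genes over both tissues, in polypoid tissue, in inflamed tissue and in the difference of the drug effect between the tissues. It called 0% of all genes in each of these comparisons. At an unadjusted p under 0.05, 1 of the 8 genes (C3) passed over both tissues, where 6.38% of all genes did. The same count was 0 in polypoid tissue (7.76% of all genes), 1 in inflamed tissue (C3, 4.38% of all genes) and 0 for the difference between the tissues (5.97% of all genes). The median log2 difference of the 8 genes was 0.04 over both tissues, and that of all genes was -0.01. The 4 mice on each side shared no range for 1 of the 8 genes (C3), as they did for 1.73% of all genes.

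**Figure D2:**
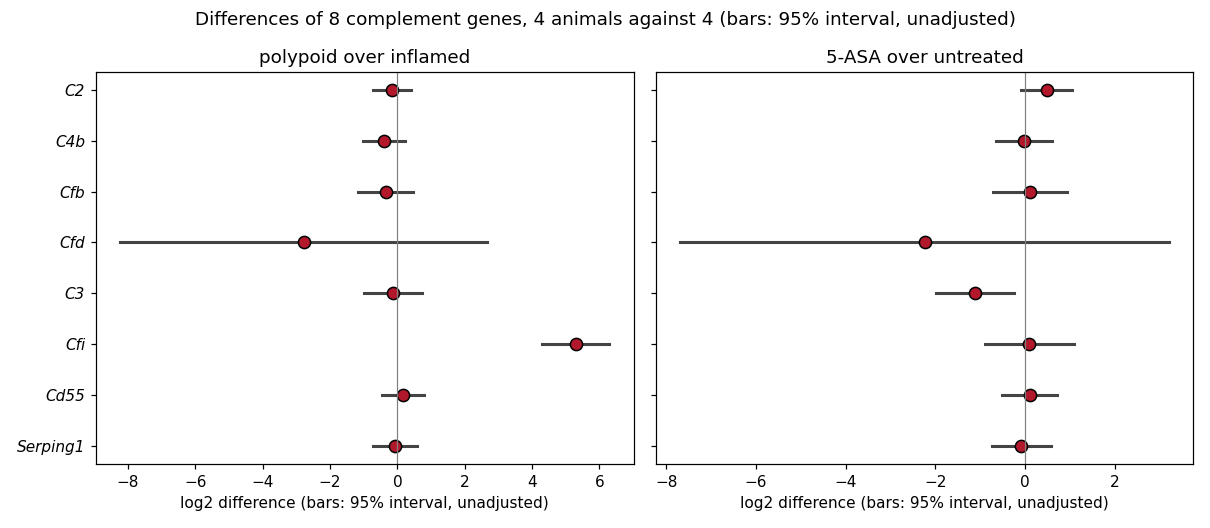
Log2 difference of each gene for polypoid over inflamed tissue and for 5-ASA over untreated mice, each from 4 mice against 4, with unadjusted 95% intervals from the limma fit. The Cfi difference for tissue stands at 5.30, the C3 interval for 5-ASA from -1.99 to -0.25, and the Cfd intervals span over 10 log2 units.

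C2 and C4b are the components that the classical and lectin routes join into a C3-cleaving enzyme. C2 stood at 0.30 and 0.47 in 5-ASA polypoid tissue, 0.26 and -0.23 in untreated polypoid tissue, 0.51 and 0.82 in 5-ASA inflamed tissue and 0.52 and -0.38 in untreated inflamed tissue. The tissues overlapped, and so did the treatment arms, since untreated inflamed mouse 1 stood above both polypoid mice given 5-ASA. Its log2 difference for polypoid over inflamed tissue was -0.17 ± 0.23 (SE, limma adjusted p = 0.73). For 5-ASA over untreated mice it was 0.48 ± 0.23 (SE, limma adjusted p = 0.79), with a 95% interval of -0.08 to 1.05. A second, dimmer C2 probe gave a difference of 0.08 for 5-ASA. C2 and Cfb are neighbours on chromosome 17 in RefSeq's gene order.

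C4b stood at 0.78 and 0.34 in 5-ASA polypoid tissue, 1.46 and 0.87 in untreated polypoid tissue, 1.75 and 1.32 in 5-ASA inflamed tissue and 1.40 and 0.54 in untreated inflamed tissue. Both polypoid mice given 5-ASA were below both untreated polypoid mice and below both inflamed mice given 5-ASA. In the 5-ASA arm its log2 difference for polypoid over inflamed tissue was -0.97 ± 0.36 (SE, limma adjusted p = 0.22). The only C4b probe was dim, at 129 to 222 scanner units in 5-ASA polypoid and 280 to 353 in 5-ASA inflamed tissue. Its sample signal was well above background on all 15 arrays and its reference signal on 11. The 5-ASA difference was -0.60 in polypoid tissue and 0.57 in inflamed tissue, and the test of the difference between these effects gave -1.17 ± 0.51 (SE, limma adjusted p = 0.86). Over both arms and both tissues the C4b differences were -0.39 for tissue and -0.02 for the drug (limma adjusted p = 0.43 and 0.996). Markers of macrophages, which make complement components, had mean log2 levels of 1.71 to 2.14 in 5-ASA polypoid and 1.95 to 2.28 in untreated polypoid tissue, and of 2.43 to 2.51 in 5-ASA inflamed and 1.88 to 2.24 in untreated inflamed tissue. In the 5-ASA arm all 11 macrophage markers were lower in polypoid tissue (median log2 difference -0.33). Limma called 0 of them, beside 3.06% of all genes, and 3 had an unadjusted p under 0.05, beside 19.1%. In that arm 7 of 8 colon epithelium markers (median -0.45), 7 of 9 fibroblast markers (-0.31) and 7 of 7 B and plasma cell markers (-2.19, 1 called) were lower too. So were all 8 smooth muscle and all 6 T cell markers (-0.86 and -0.20), while all 7 neutrophil markers were higher (1.41). For the difference of the drug effect between the tissues 10 of the 11 macrophage markers were negative (median -0.38). Limma called 0 of them, beside 0% of all genes, and 2 had an unadjusted p under 0.05, beside 5.97%. The median of that difference was -0.96 over colon epithelium, -0.88 over B and plasma cell and -0.34 over fibroblast markers. It was 1.43 over smooth muscle, 0.11 over T cell and 0.20 over neutrophil markers. The part of these cells in the C4b values was not tested. C4a, a near-identical copy of C4b, is a separate gene on the array, and signal of either could reach the probe of the other.

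Cfb supplies the cutting subunit of the alternative route's C3-cleaving enzyme. It stood at 1.24 and 0.47 in 5-ASA polypoid tissue, 1.21 and 1.19 in untreated polypoid tissue, 1.59 and 1.72 in 5-ASA inflamed tissue and 1.82 and 0.38 in untreated inflamed tissue. Of the inflamed mice 3 were above all 4 polypoid mice, and untreated inflamed mouse 2 was below all of them. The log2 difference was -0.35 ± 0.34 for polypoid over inflamed tissue and 0.10 ± 0.34 for 5-ASA over untreated mice (SE, limma adjusted p = 0.60 and 0.98).

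Cfd is the protease that cuts factor B, and fat cells are its main source in mice. It stood at -0.16 and -0.08 in 5-ASA polypoid tissue, 6.32 and 0.24 in untreated polypoid tissue, 7.48 and 0.16 in 5-ASA inflamed tissue and 7.75 and 2.05 in untreated inflamed tissue. In all, 3 mice, each the first of its group, were 6.32 or above and 4 mice were 0.24 or below, with untreated inflamed mouse 2 between them. The measured values spanned 7.91 log2 units over the 8 mice. The probe was not well above background on either array of 5-ASA polypoid mouse 1, the lowest mouse, or on the array of 5-ASA inflamed mouse 2, so those values are bounds. In the 3 mice with high values the dyes gave ratios within 0.43 log2 units of each other, and in 5-ASA inflamed tissue the probe's brightness ran from 145 to 40586 scanner units.

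The spread of Cfd lay mostly within groups, and no comparison of groups passed the test. The log2 difference was -2.78 ± 2.24 for polypoid over inflamed tissue and -2.24 ± 2.24 for 5-ASA over untreated mice (SE, limma adjusted p = 0.52 and 0.92). Without 5-ASA inflamed mouse 1 the tissue difference was -0.95 and the drug difference -4.07. Without 5-ASA inflamed mouse 2 they were -4.61 and -0.41. The probe was well above background on 2 of 4 arrays in 5-ASA polypoid, 3 of 4 in untreated polypoid, 2 of 3 in 5-ASA inflamed and 4 of 4 in untreated inflamed tissue.

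Some markers of fat cells, 3 of the 8 measured, were higher in the same 3 mice than in the other 5. Cidec, a lipid droplet protein, stood at 1.39 in untreated polypoid mouse 1, 4.08 in 5-ASA inflamed mouse 1 and 2.85 in untreated inflamed mouse 1, and at 0.30 or below in the other 5 mice. Adipoq (adiponectin) stood at 1.38, 4.55 and 3.23 in those 3 mice and at 0.09 or below in the other 5, though its probe was well above background on only 10 of 15 arrays and did not pass the filter. Fabp4, a fatty acid carrier of fat cells and capillary endothelium, stood at 1.98, 5.16 and 3.38 in them and at 1.91 or below elsewhere, and Plin1, a lipid droplet coat protein, at 0.41 or above against 0.30 or below. Of the 8 measured fat cell markers these 3 (Cidec, Fabp4 and Plin1) had all of the 3 mice above the other 5, and Lep, Retn, Cidea, Lipe and Pparg did not. Cidea was as low as -0.34 in the 3 mice and reached 1.21 in the other 5, and Pparg 2.56 and 3.26. The mean log2 level of the 8 markers was 0.49 to 0.54 in 5-ASA polypoid and 0.37 to 0.83 in untreated polypoid tissue, and 0.58 to 1.89 in 5-ASA inflamed and 0.49 to 1.27 in untreated inflamed tissue. The order differed in part, since Cidec, Adipoq and Fabp4 were highest in 5-ASA inflamed mouse 1 and Cfd in untreated inflamed mouse 1, and their part in the Cfd values was not tested.

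**Figure D3:**
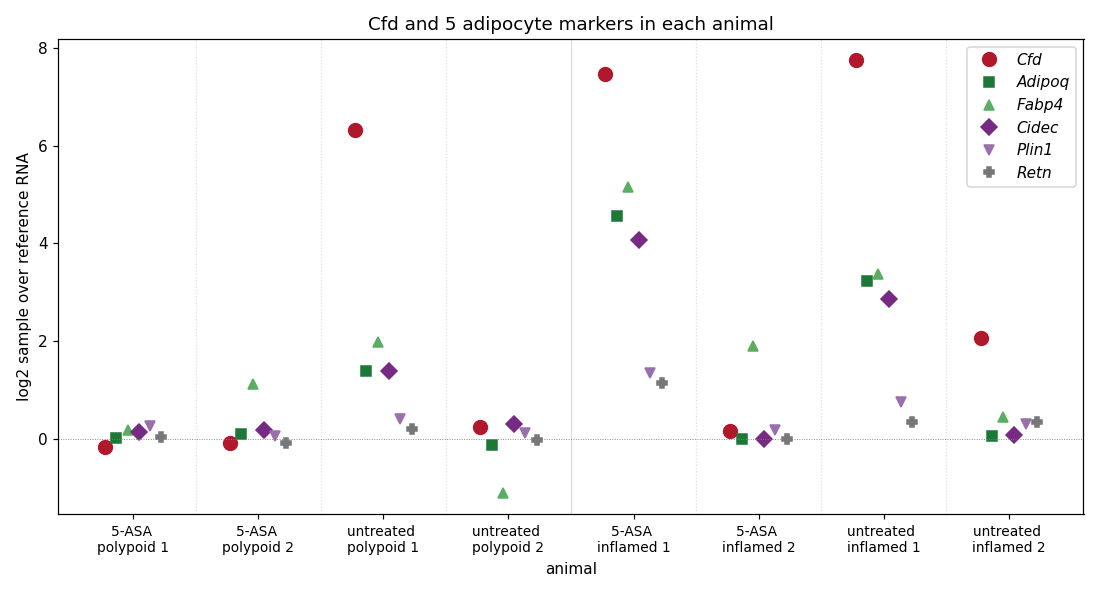
Cfd and 5 markers of fat cells in each of the 8 mice, as log2 of sample over reference RNA, with a point per gene and mouse (levels of different genes are not comparable). Cfd, Adipoq, Cidec, Fabp4 and Plin1 are each higher in untreated polypoid mouse 1, 5-ASA inflamed mouse 1 and untreated inflamed mouse 1 than in the other 5 mice. Retn is not, and Lep, Cidea, Lipe and Pparg, which were not either, are left out of the drawing.

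C3 is the protein on which all routes converge, and its fragments coat targets and attract leukocytes. It stood at 0.47 and -0.72 in 5-ASA polypoid tissue, 0.76 and 0.48 in untreated polypoid tissue, 0.06 and -0.79 in 5-ASA inflamed tissue and 1.55 and 0.69 in untreated inflamed tissue. All 4 mice given 5-ASA were below all 4 untreated mice, though 5-ASA polypoid mouse 1 and untreated polypoid mouse 2 differed by under 0.01. The mean was -0.24 ± 0.62 in mice given 5-ASA and 0.87 ± 0.47 in untreated mice (SD, n = 4 each). The log2 difference was -1.12 ± 0.36 (SE), a 2.17-fold lower level, with an unadjusted p of 0.020 and an adjusted p of 0.77 in limma. It did not pass the test, and 0.714% of all genes had 4 mice given 5-ASA wholly below the 4 untreated mice.

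Within scan sessions the C3 difference for 5-ASA over untreated was -1.49 in inflamed tissue of session 1, -0.29 in polypoid tissue of session 2 and -1.20 in polypoid tissue of session 3, each from 1 mouse against 1. By tissue it was -0.74 ± 0.51 in polypoid and -1.49 ± 0.51 in inflamed tissue (SE, limma adjusted p = 0.78 and 0.975). Without 5-ASA polypoid mouse 2 the value in polypoid tissue was -0.15. The effects of the drug in the 2 tissues differed by 0.75 ± 0.71 (SE, limma adjusted p = 0.95). Between polypoid and inflamed tissue C3 differed by -0.13 ± 0.36 (SE, limma adjusted p = 0.86), with overlapping mice. A second C3 probe, too dim to be kept, gave a difference of -0.01 for 5-ASA.

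In 3 of the lists of cell type markers every marker was lower with the drug over both tissues. All 8 smooth muscle markers were lower in mice given 5-ASA (median log2 difference -0.73), with mean levels of 0.57 to 0.97 in 5-ASA polypoid and 0.74 to 1.17 in untreated polypoid tissue, and of 1.35 to 1.79 in 5-ASA inflamed and 2.40 to 3.52 in untreated inflamed tissue. All 7 B and plasma cell markers were lower (median -0.91), with mean levels of 0.35 to 0.42 in 5-ASA polypoid and 1.80 to 1.85 in untreated polypoid tissue, and of 1.60 to 2.13 in 5-ASA inflamed and 1.95 to 3.56 in untreated inflamed tissue. All 6 T cell markers were lower (median -0.14), with mean levels of -1.69 to -1.39 in 5-ASA polypoid and -1.54 to -1.29 in untreated polypoid tissue, and of -1.26 to -1.17 in 5-ASA inflamed and -1.11 to -0.93 in untreated inflamed tissue. Of these lists limma called 0 markers, beside 0% of all genes. At an unadjusted p under 0.05 passed 4 of smooth muscle, 2 of B and plasma cells and 0 of T cells, beside 6.38% of all genes. Of the 8 colon epithelium markers 5 were lower over both tissues (median -0.11). All 8 were lower in polypoid tissue (median -0.46), with 4 at an unadjusted p under 0.05, beside 7.76% of all genes. In inflamed tissue 2 were lower and 6 higher (median 0.30). Of the 11 macrophage markers 5 were higher and 6 lower over both tissues (median -0.06), and of the 9 fibroblast markers 4 and 5 (-0.05). In inflamed tissue 9 macrophage markers (median 0.31) and 7 fibroblast markers (0.14) were higher, and 2 of each list were lower. In polypoid tissue 7 of each list were lower (medians -0.07 and -0.23). The part of these cells in the C3 values was not tested.

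**Figure D4:**
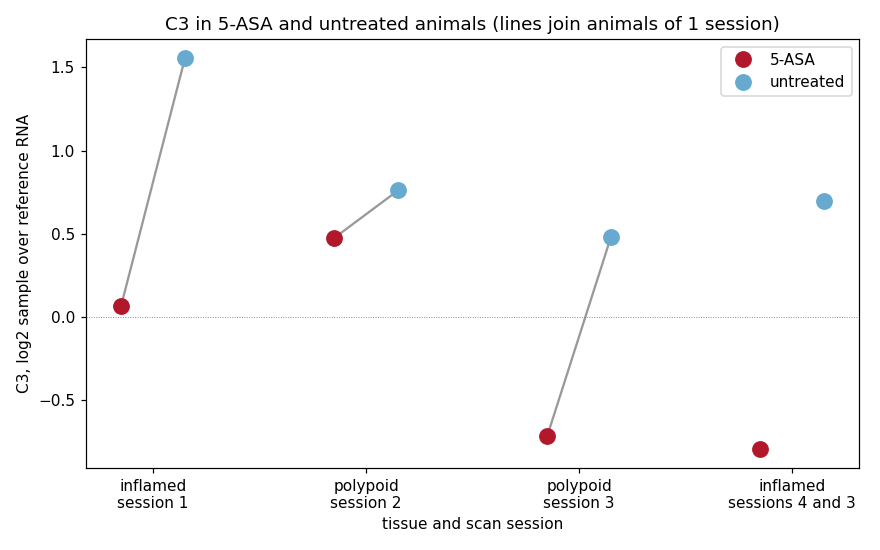
C3 in the 8 mice as log2 of sample over reference RNA, by tissue and scan session, with the mouse given 5-ASA left of the untreated mouse and lines joining mice of 1 session. The 5-ASA mouse is lower in each of the 3 pairs that share a session, by 1.49, 0.29 and 1.20 log2 units, and the last pair was scanned in different sessions.

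The stretch before the start of C3 and of Cfd is shown because C3 separated the treatment arms and Cfd had the widest spread over mice. RefSeq's promoter table (GRCm38.p6) held 3 of the 8 genes: C3, Cfd and Cd55. The 250 bases before the start, 5′ to 3′ on the gene's strand, were searched on both strands for TTNNGNAA, the pattern of the C/EBP factors, and TTCNNNGAA, that of the STAT factors. The pattern of AP-1 was TGANTCA, the core box searched was TATAAA, and the NF-kappaB consensus was the last of the 5. C/EBP, STAT, AP-1 and NF-kappaB carry inflammatory and acute-phase signals, and capitals mark the matches.
C3, chr17:57228137-57228386, minus strand: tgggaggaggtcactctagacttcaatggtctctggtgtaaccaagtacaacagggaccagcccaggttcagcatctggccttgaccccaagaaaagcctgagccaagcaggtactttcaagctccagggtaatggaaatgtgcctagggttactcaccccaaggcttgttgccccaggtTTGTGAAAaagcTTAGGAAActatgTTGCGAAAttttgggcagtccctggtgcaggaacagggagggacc
Cfd, chr10:79890603-79890852, plus strand: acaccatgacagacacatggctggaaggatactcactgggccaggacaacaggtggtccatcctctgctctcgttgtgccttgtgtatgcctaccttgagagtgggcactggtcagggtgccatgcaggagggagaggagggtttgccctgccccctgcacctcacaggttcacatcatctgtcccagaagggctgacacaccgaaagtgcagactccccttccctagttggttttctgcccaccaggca
In C3 the C/EBP pattern matched at 3 places, TTGTGAAA from base -70, TTAGGAAA from base -58 and TTGCGAAA from base -45, counted back from the start, and the last of these reads as the pattern on both strands. Among 32851 mouse promoters of this length 36.8% held the pattern at least once and 2.61% at 3 or more places. C3 held none of the other patterns, and Cfd and Cd55 held none of the 5, which are found in 7.02% (STAT), 6.75% (AP-1), 12.4% (the core box) and 7.25% (NF-kappaB) of all promoters. A match of letters is a description of the sequence, and binding was not measured.

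Cfi is the protease that cuts and inactivates C3b and C4b with the help of cofactors. It stood at 6.35 and 4.81 in 5-ASA polypoid tissue, 5.90 and 4.67 in untreated polypoid tissue, -0.02 and 0.19 in 5-ASA inflamed tissue and 0.25 and 0.12 in untreated inflamed tissue. The lowest polypoid mouse was over 4 log2 units above the highest inflamed mouse. The mean was 5.43 ± 0.82 in polypoid and 0.13 ± 0.12 in inflamed tissue (SD, n = 4 each), a log2 difference of 5.30 ± 0.41 (SE) or 39.4-fold. The 4 mice of each tissue also shared no range for 16.3% of all genes.

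The probe of Cfi was well above background on all 15 arrays. Its brightness was 3992 to 11150 scanner units in 5-ASA polypoid and 1934 to 11792 in untreated polypoid tissue, and 112 to 221 in 5-ASA inflamed and 145 to 166 in untreated inflamed tissue. The reference RNA gave at most 187 scanner units on this probe. The difference was 5.50 in the 5-ASA arm and 5.10 in the untreated arm. Among the 3 mice of scan session 3 it was 4.62, and between the untreated polypoid and untreated inflamed mouse of that session 4.55. The polypoid mice scanned in session 2 were above those of session 3 in both arms. Cfi was read by 1 probe, so no second probe bears on these values.

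For 5-ASA the Cfi differences were smaller than their standard errors, which rest on a spread shared by all groups. The differences were 0.29 ± 0.58 in polypoid and -0.10 ± 0.58 in inflamed tissue (SE, limma adjusted p = 0.99 each). The inflamed mice themselves varied less, with an SD of 0.15 with 5-ASA and 0.09 without (n = 2 each). Over both tissues the difference was 0.09 ± 0.41 (SE, limma adjusted p = 0.98), with a 95% interval of -0.90 to 1.09.

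The 3 genes with the pattern most like that of Cfi over the 8 mice were Cxcl5, Dkk2 and Wif1. Likeness was the root-mean-square difference between levels centred on each gene's mean, which was 0.52 for Cxcl5, 0.57 for Dkk2 and 0.62 for Wif1, where the levels of Cfi had a root-mean-square deviation of 2.70 from their own mean. Cxcl5 is a chemokine that attracts neutrophils, and Dkk2 and Wif1 are secreted modulators of Wnt signalling. Cfi varied mainly between the tissues, so genes picked by this likeness had to differ between them too. Their levels are given as a description. Cxcl5 stood at 4.62 to 6.15 in polypoid and -1.10 to 0.19 in inflamed tissue. Dkk2 stood at 3.19 to 4.25 in polypoid and -1.27 to -0.34 in inflamed tissue, and Wif1 at 6.67 to 7.34 in polypoid and 1.13 to 2.84 in inflamed tissue.

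Of the 7 measured neutrophil markers limma called 5 as higher in polypoid tissue, beside 3.97% of all genes. Among the 5 were S100a8 and S100a9, the calprotectin subunits, with log2 differences of 4.47 and 4.32 (limma adjusted p = 0.0063 and 0.0024). A marker could pass the filter through polypoid tissue alone, and such a marker leans toward a rise there. Mmp8, Cxcr2 and Retnlg were well above background on 8, 9 and 10 of 15 arrays. Nothing is read from the count of 5. The mean level of the 7 was 1.88 to 2.84 in 5-ASA polypoid and 2.30 to 2.45 in untreated polypoid tissue, and 0.18 to 0.20 in 5-ASA inflamed and 0.33 to 0.54 in untreated inflamed tissue. Ngp and Camp, which mark neutrophil granules, did not pass the filter. Of the 8 smooth muscle markers 4 fell in polypoid tissue (limma), where 5.93% of all genes were called in either direction. The median log2 difference of the 8 was -1.41. Of the 7 B and plasma cell markers 1 fell (Mzb1), beside the same 5.93%, and all 7 were lower (median -1.57). All 6 T cell markers were lower (median -0.25), with 0 called by limma. At an unadjusted p under 0.05, 2 of them passed, beside 23.2% of all genes. The part of these cells in the Cfi values was not tested.

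Cd55 is a membrane protein that breaks up the C3-cleaving enzymes on host cells. It stood at 4.99 and 4.66 in 5-ASA polypoid tissue, 5.45 and 4.78 in untreated polypoid tissue, 5.49 and 4.63 in 5-ASA inflamed tissue and 4.70 and 4.39 in untreated inflamed tissue. On the probe used all 8 mice were more than 4 log2 units above the reference RNA. The tissues overlapped over both arms, and so did the arms over both tissues. In the untreated arm both polypoid mice were above both inflamed mice, with a log2 difference of 0.57 ± 0.36 (SE, limma adjusted p = 0.56). The log2 difference was 0.17 ± 0.25 for polypoid over inflamed tissue and 0.11 ± 0.25 for 5-ASA over untreated mice (SE, limma adjusted p = 0.75 and 0.96). The other 2 probes of Cd55, both dimmer, stood at 0.84 to 2.04 and at 0.09 to 0.51 over the 8 mice. They gave tissue differences of 0.49 and -0.02. Cd55b is a close copy beside Cd55 on chromosome 1, and the array names the Cd55 probes by the older symbol Daf1, so signal of the copy on these probes cannot be told apart.

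Serping1 blocks the proteases that start the classical and lectin routes. It stood at 3.22 and 2.56 in 5-ASA polypoid tissue, 3.13 and 3.14 in untreated polypoid tissue, 3.39 and 2.85 in 5-ASA inflamed tissue and 3.52 and 2.55 in untreated inflamed tissue. The groups overlapped in both directions. The log2 difference was -0.07 ± 0.27 for polypoid over inflamed tissue and -0.08 ± 0.27 for 5-ASA over untreated mice (SE, limma adjusted p = 0.91 and 0.98). With a span of 0.97 log2 units over the 8 mice it varied least of the 8 genes, and 57.6% of all genes had a narrower span.

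Among themselves the 8 genes differed in how widely they varied over the mice. Cfb, C2, C4b, Cd55 and Serping1 had spans of 0.97 to 1.43 log2 units, C3 of 2.35, Cfi of 6.37 and Cfd of 7.91. The 2 untreated inflamed mice stood apart for several genes. Mouse 1 held the highest value of 4 genes (Cfb, C3, Cfd and Serping1), and mouse 2 the lowest value of 4 (Cfb, C2, Cd55 and Serping1).

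Of the other complement genes 54 were listed, 53 were on the array and 45 were measured. For polypoid over inflamed tissue limma called 0 of the 45, beside 5.93% of all genes, and 7 had an unadjusted p under 0.05, beside 23.2% of all genes. Their median log2 difference was -0.09, beside -0.02 for all genes, and 17 of the 45 were above 0. For 5-ASA over untreated mice limma called 0 of the 45, with 3 at an unadjusted p under 0.05, beside 6.38% of all genes. Those 3, picked after their values were seen, were C8g, Masp2 and Fcnb, with log2 differences of -0.38, -0.34 and -0.29. By group, the median for tissue was 0.32 over 8 fluid-phase regulators, 0.02 over 9 membrane regulators, -0.09 over 14 classical and lectin genes, -0.14 over 5 alternative and terminal genes and -0.14 over 9 receptors.

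Clu (clusterin, which binds the terminal complex) stood at 2.45 and 2.03 in 5-ASA polypoid tissue, 2.91 and 3.93 in untreated polypoid tissue, -0.10 and 0.69 in 5-ASA inflamed tissue and 2.85 and -0.04 in untreated inflamed tissue. Untreated inflamed mouse 1 alone among the inflamed mice lay within the polypoid range. The Clu difference was 1.98 ± 0.65 (SE, limma adjusted p = 0.14). With 1 mouse left out it ranged from 1.26, without untreated inflamed mouse 2, to 2.71, without untreated inflamed mouse 1.

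The remaining named genes had tissue differences of 0.40 for Susd4, a membrane regulator, 0.55 for Itgam, a subunit of complement receptor 3, -0.31 for C8g, a terminal component, -0.25 for Csmd3, a membrane protein, and -0.28 for Fcnb, a lectin-route ficolin. Their limma adjusted p lay between 0.086 for Susd4 and 0.24 for Fcnb.

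**Figure D5:**
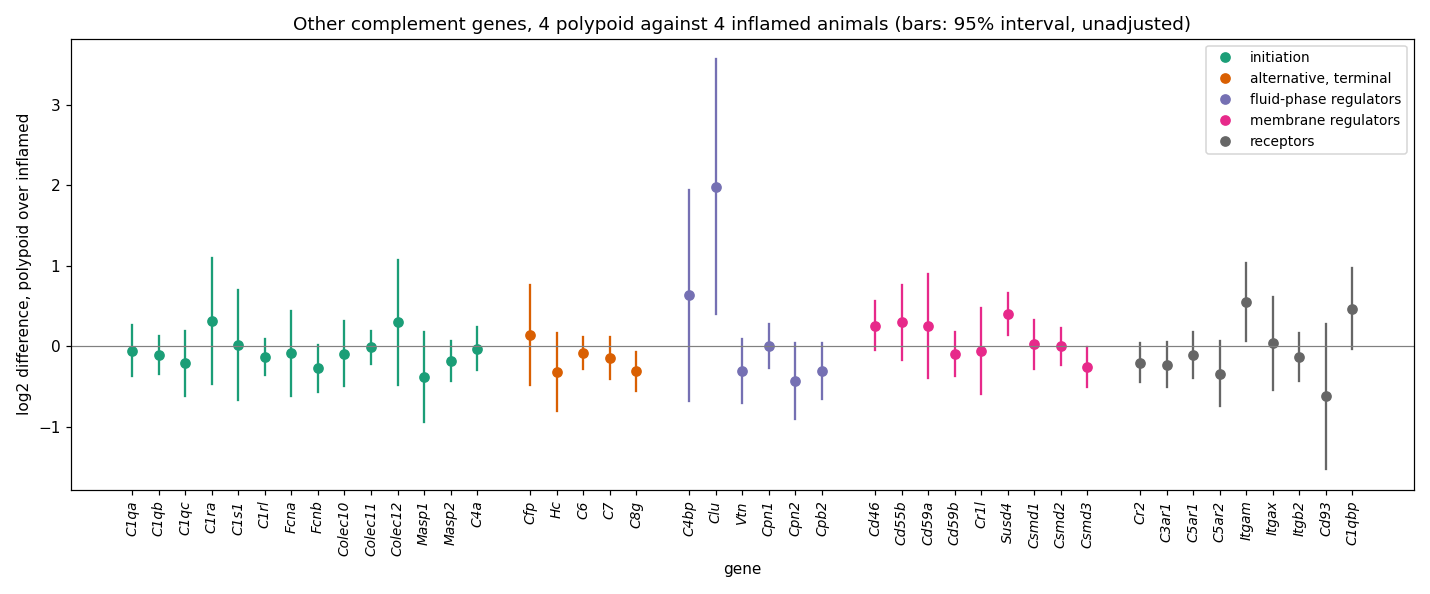
Log2 difference for polypoid over inflamed tissue of other complement genes, by group, from 4 mice against 4, with unadjusted 95% intervals from the limma fit. Clu stands highest of the genes drawn, at 1.98, and none of them passed the adjusted threshold.

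Inflammatory signals and acute-phase genes known to act upstream of or beside complement genes formed a further list. Of its 22 genes 20 were measured, and limma called 2 as higher in polypoid tissue, beside 3.97% of all genes. At an unadjusted p under 0.05, 4 of the 20 passed, beside 23.2% of all genes. The median log2 difference over the 20 was 0.27, with 13 above 0 and 7 below. The 2 called were Il1b and Socs3. Il1b, the cytokine interleukin 1 beta, stood at 7.21 and 5.18 in 5-ASA polypoid tissue, 6.44 and 5.35 in untreated polypoid tissue, 2.18 and 3.17 in 5-ASA inflamed tissue and 3.04 and 2.89 in untreated inflamed tissue. Its log2 difference was 3.22 ± 0.51 (SE, limma adjusted p = 0.025). Socs3, a feedback inhibitor of STAT3 signalling, had a difference of 2.29 ± 0.24 (SE, limma adjusted p = 0.0097), with 1.53 to 2.60 in polypoid and -0.40 to -0.10 in inflamed tissue. For 5-ASA 0 of the 20 were called by limma, beside 0% of all genes, with 2 at an unadjusted p under 0.05, beside 6.38%.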

How the data were processed

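Spot intensity and local background of both dyes were extracted with Agilent Feature Extraction (version 9.1.1.1), per the file headers. Per the file headers, these files also give processed intensity values, background-subtracted and dye-normalised, and their log10 ratio of Cy5 over Cy3, which served to find the scale and direction of the value table. The authors' deposited table has log2 ratios of sample to reference, already turned for dye-swapped arrays. How it was corrected and normalised is not given in the sources used here, and its correlation with the present values was at least 0.996.

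Processing of the 15 arrays used limma 3.58.1 and statmod 1.5.0 under R 4.3.3: normexp with an offset of 50, loess within arrays, outlier spots left out and swapped arrays turned. A fit of animal plus dye gave 1 value per probe for each of the 8 mice. Of 41174 probes, 30163 were kept, and each gene took its brightest kept probe, which left 21300 genes. Probes were named through RefSeq accessions and symbols.

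Group means were compared in limma over all 8 mice, with a shared spread (4 residual and 2.14 prior degrees of freedom), with Benjamini-Hochberg adjustment across the 21300 genes and calls at an adjusted p under 0.05. The fit was tested on simulated data. The 2 mice of a group are in different scan sessions, so their spread also holds any difference between sessions, and the number of mice limits the precision.

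The 8 genes and all lists were chosen with earlier results of these data known. Named genes were all 8 members, the 8 other complement genes with the smallest p for tissue (2 of which are not reported here), upstream genes past the threshold, and the 3 genes most like a called member. Alternatives changed background correction, normalization, dyes used, filter, choice of probe, scan session as a block, the replicate block, and the mice left out.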

Additional observations from a re-analysis of the deposited data

Results flagged for a closer look

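With 8 genes and 4 sets of 4 mice (polypoid, inflamed, 5-ASA and untreated), 32 sets were checked for a mouse far from the other 3, and chance flags about 1 set in 20. In 5 sets the gap to the nearest mouse was a larger share of the set's range than Dixon's 95% limit for 4 samples allows. Cfd stood at 7.48 in 5-ASA inflamed mouse 1, where the next mouse given 5-ASA was at 0.16. Cfd stood at 6.32 in untreated polypoid mouse 1, where the next polypoid mouse was at 0.24. Cfb stood at 0.47 in 5-ASA polypoid mouse 2, with the nearest polypoid mouse at 1.19, and at 0.38 in untreated inflamed mouse 2, with the nearest inflamed mouse at 1.59. Serping1 stood at 2.56 in 5-ASA polypoid mouse 2, with the nearest polypoid mouse at 3.13.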

How the results depend on the processing

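Each result was recomputed under 20 to 22 alternatives, and Cfd dropped out where probes had to be well above background on every array. The number of the 8 genes called for 5-ASA was 0 in every one, over both tissues, in each tissue and for the difference between tissues, and so was the number of the 45 other complement genes called for 5-ASA over both tissues. The C3 difference for 5-ASA stayed below 0 in 21 of 21 alternatives (-1.42 to -0.82, lowest adjusted p 0.38), and the Cfi difference for tissue stayed above 0 in 21 of 21 (4.76 to 6.15). Cfi was chosen for this difference, so nothing is read from its sign or its calls under the alternatives. With scan session as a fixed block, which leaves 1 residual degree of freedom, 0 of the 8 genes were called for tissue over both arms and in the 5-ASA arm, and 0 genes of any kind were called. In the untreated arm 1 gene (Cfi) instead of 0 was called with the scanner software's processed signals, an offset of 10, median centring without loess, Cy3 arrays only, probes well above background on every array, the mean of all kept probes, and session as a random block. In the 5-ASA arm the processed signals called 2 (Cfi and C4b, C4b at -1.52), and leaving out 1 mouse gave 0 to 1, with 0 without 5-ASA polypoid mouse 1, 5-ASA inflamed mouse 1 or 5-ASA inflamed mouse 2. Of the other complement genes 2 were called for tissue with processed signals (Susd4 at 0.97 among them), 1 with Cy3 arrays only, and 0 to 1 with 1 mouse left out (Clu, without untreated inflamed mouse 1). In the other alternatives, the replicate block below aside, the count was 0.

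The labels give the mice of different groups the same numbers without saying that a number marks a pair, and mice numbered 1 were scanned in sessions 1 and 2 and those numbered 2 in sessions 3 and 4. The fit with the replicate block called 2 of the 8 genes in the 5-ASA arm (Cfi, and C4b at -0.97 with an adjusted p of 0.039) and 2 other complement genes for tissue. Over all genes it called 1791 instead of 1264 for tissue over both arms, 17 instead of 35 in the untreated arm and 1089 instead of 651 in the 5-ASA arm. The deviations of same-numbered mice correlated at 0.03 to 0.36.

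Differences near 0 that never passed the test changed sign under some settings, and the cause was not tested. For tissue, the fixed session block gave 0.56 for Cfb, 0.51 for C2, -0.0729 for Cd55 and 0.37 for Serping1. For 5-ASA it gave -0.28 for Cfb. For 5-ASA, the processed signals gave -0.00297 for Cfi and -0.0152 for Cd55, and Cy3 arrays alone gave 0.0236 for C4b and 0.0315 for Serping1. With 1 mouse left out, the tissue difference ranged from -0.71 to 0.0097 for Cfb, -0.43 to 0.17 for C3, -0.39 to 0.0604 for C2, -0.0495 to 0.38 for Cd55 and -0.31 to 0.17 for Serping1. The 5-ASA difference then ranged from -0.29 to 0.48 for Cfi, -0.25 to 0.46 for Cfb, -0.23 to 0.20 for C4b, -0.11 to 0.33 for Cd55 and -0.32 to 0.16 for Serping1.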
